A study of Mus musculus with 6 samples.

Results

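The collagen genes were taken as the protein-coding genes of the RefSeq annotation of GRCm38.p6 whose symbol is Col, a type number, a and a chain number. The rule gave 44 of 21887 protein-coding genes. It uses no measured value, though it was chosen with earlier results of these data known. Open chromatin was mapped in E14 cells, a mouse embryonic stem cell line, by ATAC-seq, an assay that uses the enzyme Tn5 to cut and tag DNA not covered by nucleosomes. The labels describe 6 samples in 6 groups of 1: a time course of E14 cells in 2i/LIF medium, untreated (0 h) and after 1, 6 or 24 h in 500 nM dTAG-13, and day 6 embryoid bodies, which formed in suspension in serum medium either with 500 nM dTAG-13 or without it. All 6 groups, the untreated ones included, carry the NSD1-dTAG knock-in, which fuses the H3K36 methyltransferase NSD1 to a tag through which dTAG-13 directs it to degradation. The sources used here do not give whether the line is 1 clone. The peak list analysed here is that of the untreated 0 h library, and nothing below bears on the loss of NSD1. With 1 library there is no replicate error and no test. Intervals for pileups and densities cover counting error only. Those for shares of genes treat genes as independent draws, though genes are not replicates, and they describe this library alone.

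Collagens are triple helices of 3 chains that the cell secretes into the extracellular matrix. Type IV collagen forms the network of basement membranes, the thin sheets under epithelia, and type XVIII is a proteoglycan of the same sheets. Fibrillar collagens form the fibrils of bone, skin, tendon and cartilage, tissues that arise late, whereas basement membrane is laid down by the first epithelia of the embryo. An accessible gene end shows that Tn5 reached the DNA there, and it is not a measure of transcription.

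The library held 77629 peaks with a median summit pileup of 23, the number of overlapping reads or fragments at the highest point of a peak. The labelled cell type was checked against 3 marker lists. Of 7 markers of naive embryonic stem cells, 6 had a peak within 1 kb of a gene end, with a median pileup of 116.5 and a median fold of 6.60. The other, Esrrb, had 22 peaks inside the gene. Of 8 fibroblast or feeder markers, 3 had one (Thy1, Pdgfrb and Twist2, pileups 15 to 22, median fold 5.84), and Pdgfra, Prrx1, Acta2, Lum and Dcn had none. Peaks inside the gene were present at 4 of the 7 naive markers and at 5 of the 8 fibroblast or feeder markers, Pdgfra with 3 among them. The naive and the fibroblast or feeder lists thus differed in pileup and in the share with a gene-end peak. They differed little in fold or in the count of genes with peaks inside them. By number, the naive markers held 30 peaks inside the gene, 22 of them in Esrrb, or 12.7 per 100 kb. The fibroblast or feeder markers held 9, or 3.55 per 100 kb. Of 6 markers of extraembryonic endoderm, a cell type that makes type IV collagen, 4 had a peak within 1 kb of a gene end (66.7%). Their pileups were 15 to 62 and their median fold 4.38. Among all protein-coding genes, 66.5% had a peak within 1 kb of a gene end, with a median pileup of 65 and a median fold of 11.1. Peaks inside the gene were found at 46.3% of all protein-coding genes. The median fold of each marker list thus lay below that of all genes, and the endoderm share was near theirs. What part cells of another type have in the collagen values was not tested.

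Collagen genes had low peaks at their ends. Where a gene had several gene-end peaks, the one of highest fold stands for it here, and by that choice the tallest were at Col5a1, Col23a1 and the shared start of Col4a1 and Col4a2. Of the 44 collagen genes, 27 had a peak overlapping the window of 1 kb either side of an annotated gene end (61.4%, Wilson 95% interval 46.6 to 74.3), against 66.5% of all protein-coding genes. The collagen share minus that of the other 21843 genes was -5.13 percentage points (Newcombe 95% interval -19.9 to 7.80), an interval that holds 0. The median summit pileup of those peaks was 23 at the 27 collagen genes (quartiles 15.5 and 36.5, range 7 to 84) and 65 at all protein-coding genes with one (quartiles 37 and 100), a ratio of 0.354. The median of the authors' fold enrichment, the pileup over the library's local background, was 7.42 at the collagen genes and 11.1 at all genes. By the peak that stands for each gene, 1 collagen gene, Col5a1, reached the median pileup of all genes, and 5 reached the median fold. A second peak of Col23a1, at its far end and also at an end of Phykpl, had a pileup of 102 and is not counted there, since its fold was lower. With a pileup of at least 20 required, 15 collagen genes had a gene-end peak (34.1%), against 60.2% of all protein-coding genes. Among all genes with a gene-end peak, 34.9% had a pileup above the 84 of Col5a1.

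Gene length bears on these shares. Collagen genes are long, with a median of 114 kb and quartiles of 35.5 and 144 kb, against a median of 17.2 kb for all protein-coding genes. Within that quartile range 12 of 22 collagen genes had a gene-end peak (54.5%, 34.7 to 73.1), against 78.8% of the 5067 protein-coding genes of those lengths. The median pileup there was 27.5 at the collagen genes and 66 at the others. At the lowest background of the library the lowest listed pileup was 6. A collagen end without a peak may thus still hold some reads or fragments at that background, and more where the local background is higher.

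**Figure D1:**
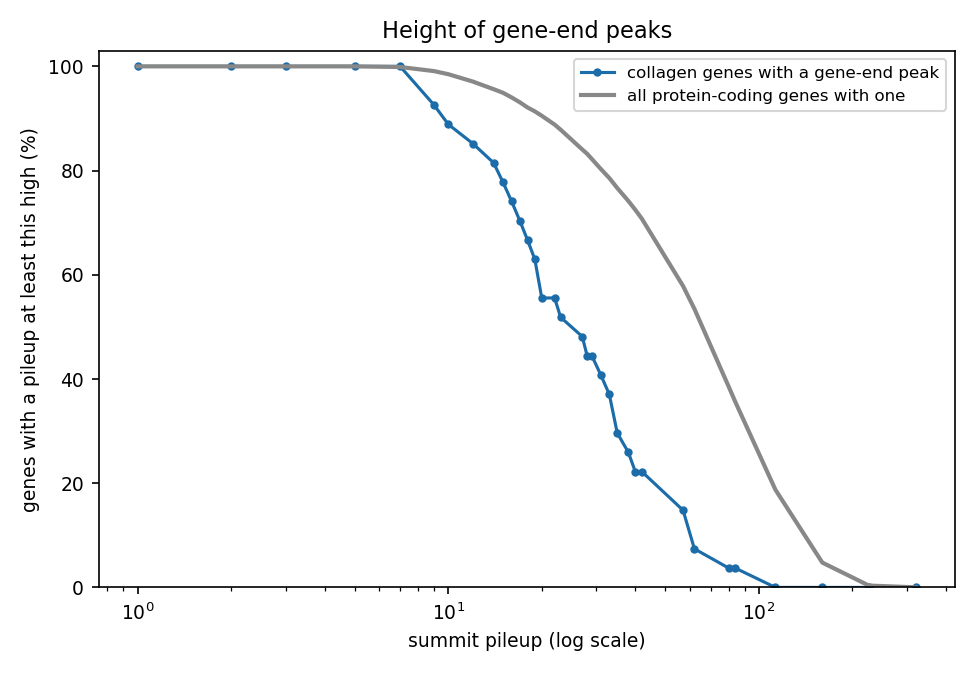
Share of genes with a gene-end peak (vertical axis, percent) whose summit pileup is at least the value on the horizontal axis (log scale), for the 27 collagen genes with such a peak (blue) and the 14552 protein-coding genes with one (grey), each gene by its peak of highest fold. The collagen curve lies to the left, with a median of 23 against 65 and a highest value of 84.

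**Figure D2:**
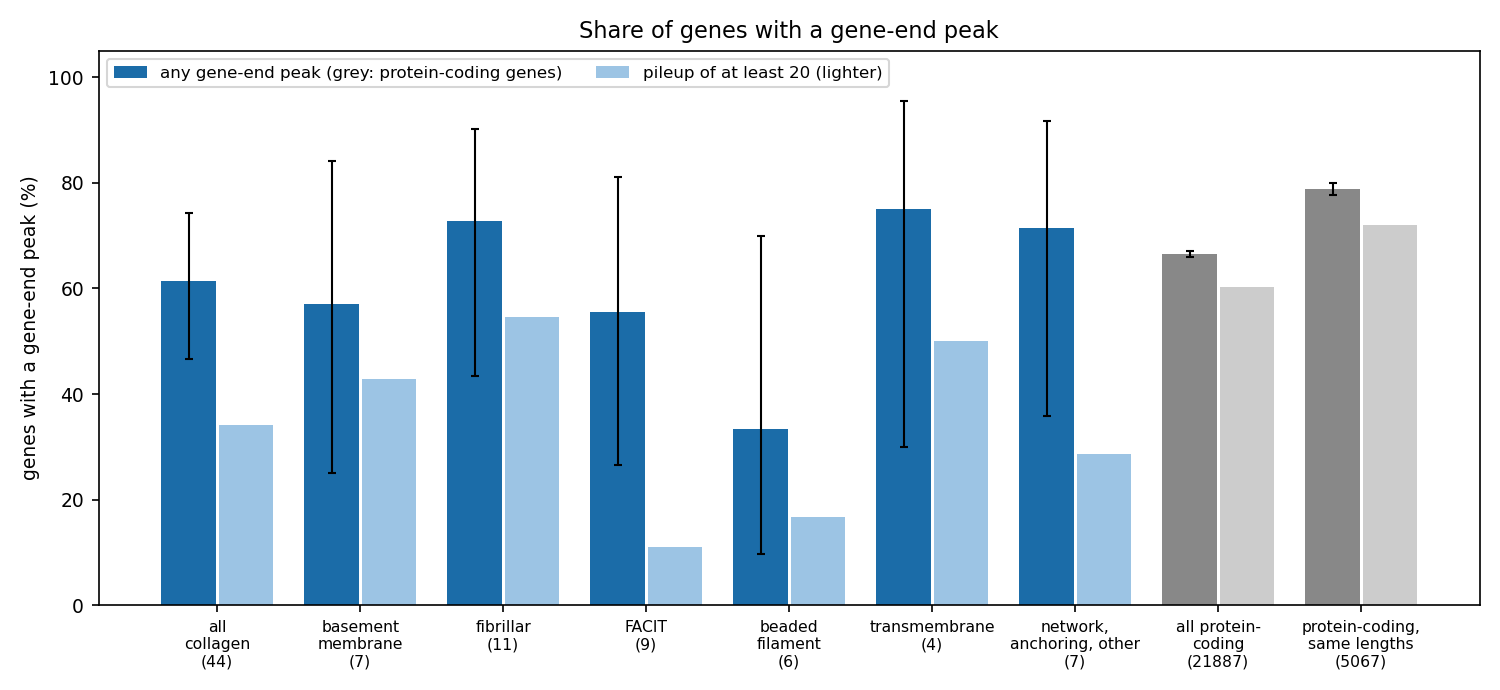
Percent of genes with any gene-end peak (darker bars, with Wilson 95% intervals) and with one of pileup 20 or more (paler bars), for all 44 collagen genes, the 6 collagen classes, all 21887 protein-coding genes and the 5067 within the collagen length quartiles; the number of genes stands under each bar pair. The paler bar of the collagen genes is 34.1% and that of all protein-coding genes 60.2%, while the darker bars are 61.4% and 66.5%.

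The basement membrane class had a shared peak at the start of Col4a1 and Col4a2, a peak at Col18a1, a faint one at Col4a6, and none at the 3 other type IV genes. Of its 7 genes 4 had a gene-end peak (57.1%, 25.05 to 84.2), and 3 had one of pileup 20 or more. Col4a1 and Col4a2 encode the α1 and α2 chains that make the type IV network of nearly all basement membranes, and they lie head to head on chromosome 8. Their listed starts were 21 bp apart, and the 2 annotated genes overlapped by 85 bp. A single peak at chr8:11312168-11313980, 1813 bp wide, stood over both starts, with a pileup of 57 (exact Poisson 95% interval 43.2 to 73.9), a fold of 8.67 and its summit 1 bp from the start of Col4a1. The pair therefore counts as 2 genes but 1 peak, and with that peak taken once the class had 3 distinct gene-end peaks.

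The promoter windows of this pair are shown because 1 peak serves both genes. Each window runs from 250 bases before to 50 after the RefSeq start in GRCm38.p6 and is written 5′ to 3′ on the strand of its gene. Capitals mark matches to TATAAA (the TATA box), CCAAT (the CCAAT box) and GGGCGG (the GC box) on either strand, so that a match on the opposite strand appears as the reverse complement. No 2 matches overlapped in the sequences printed here. Both windows lie inside the peak and overlap each other by 78 bases. Col4a1 is on the minus strand at chr8:11312777-11313076 and Col4a2 on the plus strand at chr8:11312555-11312854.
Col4a1: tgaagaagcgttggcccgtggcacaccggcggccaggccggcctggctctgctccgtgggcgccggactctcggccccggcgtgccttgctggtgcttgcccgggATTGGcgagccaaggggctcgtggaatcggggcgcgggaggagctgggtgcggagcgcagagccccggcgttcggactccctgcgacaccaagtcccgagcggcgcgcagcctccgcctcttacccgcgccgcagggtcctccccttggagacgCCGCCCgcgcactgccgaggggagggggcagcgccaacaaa
Col4a2: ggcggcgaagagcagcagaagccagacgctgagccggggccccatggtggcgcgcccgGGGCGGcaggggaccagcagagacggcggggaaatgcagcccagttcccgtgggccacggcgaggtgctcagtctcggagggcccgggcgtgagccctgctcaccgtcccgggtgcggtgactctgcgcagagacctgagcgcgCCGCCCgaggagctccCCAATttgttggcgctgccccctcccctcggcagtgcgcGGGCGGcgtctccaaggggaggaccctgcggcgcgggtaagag
The Col4a1 window held 37 CpG dinucleotides and the Col4a2 window 33, against a median of 7 over the 32851 RefSeq promoters of the same length (quartiles 3 and 20). Neither window held TATAAA, which 13.6% of all the promoters hold. Both held CCAAT, found in 37.4% of all promoters, and GGGCGG, found in 35.7%. The single GGGCGG match of the Col4a1 window is the same site as 1 of the 3 in the Col4a2 window, within the 78 bases that they share.

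The other head-to-head type IV pairs had a faint peak or none. Col4a3 and Col4a4, whose chains join that of Col4a5 in the basement membrane of the kidney glomerulus, overlapped by 114 bp on chromosome 1, and neither had a gene-end peak. Col4a5 and Col4a6 lie on chromosome X, 1274 bp apart. Col4a6 had a peak of 334 bp at chrX:141473693-141474026 with a pileup of 7 (2.81 to 14.4), a fold of 3.48 and a -log10 q of 2.305, where the list begins at 1.303. The same peak lay 1344 bp from the near end of Col4a5, outside its window, and Col4a5 had no gene-end peak. Of the 966 protein-coding genes of chromosome X, 47.6% had a gene-end peak. Col18a1, whose product is the source of endostatin, had a gene-end peak of 42 (30.3 to 56.8) and fold 6.10 at chr10:77165154-77166633, with its summit 14 bp from the annotated start.

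Fibrillar genes had a gene-end peak at 8 of 11 members (72.7%, 43.4 to 90.3), and 6 of those had a pileup of 20 or more. Col5a1, a chain of the type V collagen that starts fibrils and limits their width, had a gene-end pileup of 84 (67.0 to 104), the highest among the peaks that stand for the collagen genes, with a fold of 12.7 at chr2:27885738-27887194. Col11a1, a chain of the related type XI of cartilage, had 31 (fold 11.0), and Col11a2, its partner chain, had 14 (fold 4.81). Col5a3 had 22 (fold 7.42), while Col5a2, which joins Col5a1 in the common form of type V, had no gene-end peak.

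Type I collagen, the main protein of bone and tendon, is made of the chains of Col1a1 and Col1a2. Their gene-end peaks differed in height and in place. Col1a1 had a peak of 38 (26.9 to 52.2) with a fold of 12.0 at chr11:94936943-94937704, near its low-coordinate end, and one of 11 at the other end. Col1a2 had a peak of 203 bp at chr6:4505579-4505781 with a pileup of 7 (2.81 to 14.4), a fold of 3.48 and a -log10 q of 2.305. The 2 Poisson intervals did not overlap, but the peaks lay at unlike places. The summit of 38 at Col1a1 was 983 bp inside the gene, and that of Col1a2 was 13 bp from its start. With windows of 500 bp Col1a1 had no gene-end peak. Col3a1, the chain of type III in vessels and skin, had no peak at either end or inside the gene. Col2a1, the collagen of cartilage, had 27 (17.8 to 39.3, fold 5.68) at its high-coordinate end. Of the minor fibrillar chains, Col27a1 had peaks of 35 (fold 6.60) and 20, and Col24a1 had none at its ends. The taller Col27a1 peak had its summit 55 bp from a listed start that lies 1403 bp inside the annotated gene.

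Promoter windows of the same kind are shown for the fibrillar genes with the tallest, the faintest and no peak, Col5a1 (plus strand, chr2:27886175-27886474), Col1a2 (plus strand, chr6:4505368-4505667) and Col3a1 (plus strand, chr1:45311288-45311587). Col3a1 is the first fibrillar gene by number without a peak at its start, and Col5a1 and Col1a2 were chosen after their values were seen.
Col5a1: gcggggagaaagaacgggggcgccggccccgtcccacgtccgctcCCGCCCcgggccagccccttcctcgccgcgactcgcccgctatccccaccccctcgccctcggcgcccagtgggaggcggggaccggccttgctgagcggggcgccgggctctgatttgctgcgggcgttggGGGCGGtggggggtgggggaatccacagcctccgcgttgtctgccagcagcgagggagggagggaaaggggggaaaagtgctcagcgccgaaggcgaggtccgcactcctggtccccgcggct
Col1a2: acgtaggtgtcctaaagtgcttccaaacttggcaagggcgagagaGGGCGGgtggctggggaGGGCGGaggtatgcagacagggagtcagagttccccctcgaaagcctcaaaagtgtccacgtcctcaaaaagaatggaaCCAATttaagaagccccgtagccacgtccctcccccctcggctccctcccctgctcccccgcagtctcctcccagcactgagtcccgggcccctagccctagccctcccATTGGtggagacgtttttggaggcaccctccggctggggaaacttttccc
Col3a1: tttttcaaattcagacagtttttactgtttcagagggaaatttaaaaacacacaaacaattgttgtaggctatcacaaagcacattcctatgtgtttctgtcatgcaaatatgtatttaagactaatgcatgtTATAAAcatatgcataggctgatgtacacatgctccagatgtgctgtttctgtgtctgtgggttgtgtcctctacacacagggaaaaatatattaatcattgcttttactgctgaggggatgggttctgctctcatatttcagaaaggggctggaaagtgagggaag
The windows held 34, 13 and 0 CpG dinucleotides, in the order printed. Among the other fibrillar genes with a listed start, the windows of Col5a3, Col27a1, Col11a2 and Col11a1 held 20, 18, 16 and 9, and that of Col24a1, which had no gene-end peak, held 6. CpG content did not follow peak height in every case, since Col11a1 with a pileup of 31 held fewer than Col1a2 with a pileup of 7. That of Col3a1 held TATAAA, its first base at position -117 from the start, and neither of the other motifs. That of Col5a1 held GGGCGG alone, and that of Col1a2 held CCAAT and GGGCGG. A match is a run of letters in a window of 300 bases and not a site of binding. RefSeq promoters were matched to 35 of the 44 collagen genes (79.5%), under the 80% set for a comparison over the whole family, so CpG content was not compared between the family and other genes.

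The basement membrane and fibrillar classes overlapped in the share, height and enrichment of their gene-end peaks. The basement membrane share minus the fibrillar share was -15.6 percentage points (Newcombe 95% interval -52.2 to 24.3), an interval that holds 0. The median pileup was 49.5 at the 4 basement membrane genes with a peak and 29 at the 8 fibrillar genes with one, and the ranges of 7 to 57 and 7 to 84 overlapped. With the shared Col4a1 and Col4a2 peak taken once, the basement membrane median was 42. The median fold was 7.38 in the basement membrane class and 7.01 in the fibrillar class, and with the shared peak taken once it was 6.10 in the basement membrane class, below the fibrillar value.

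**Figure D3:**
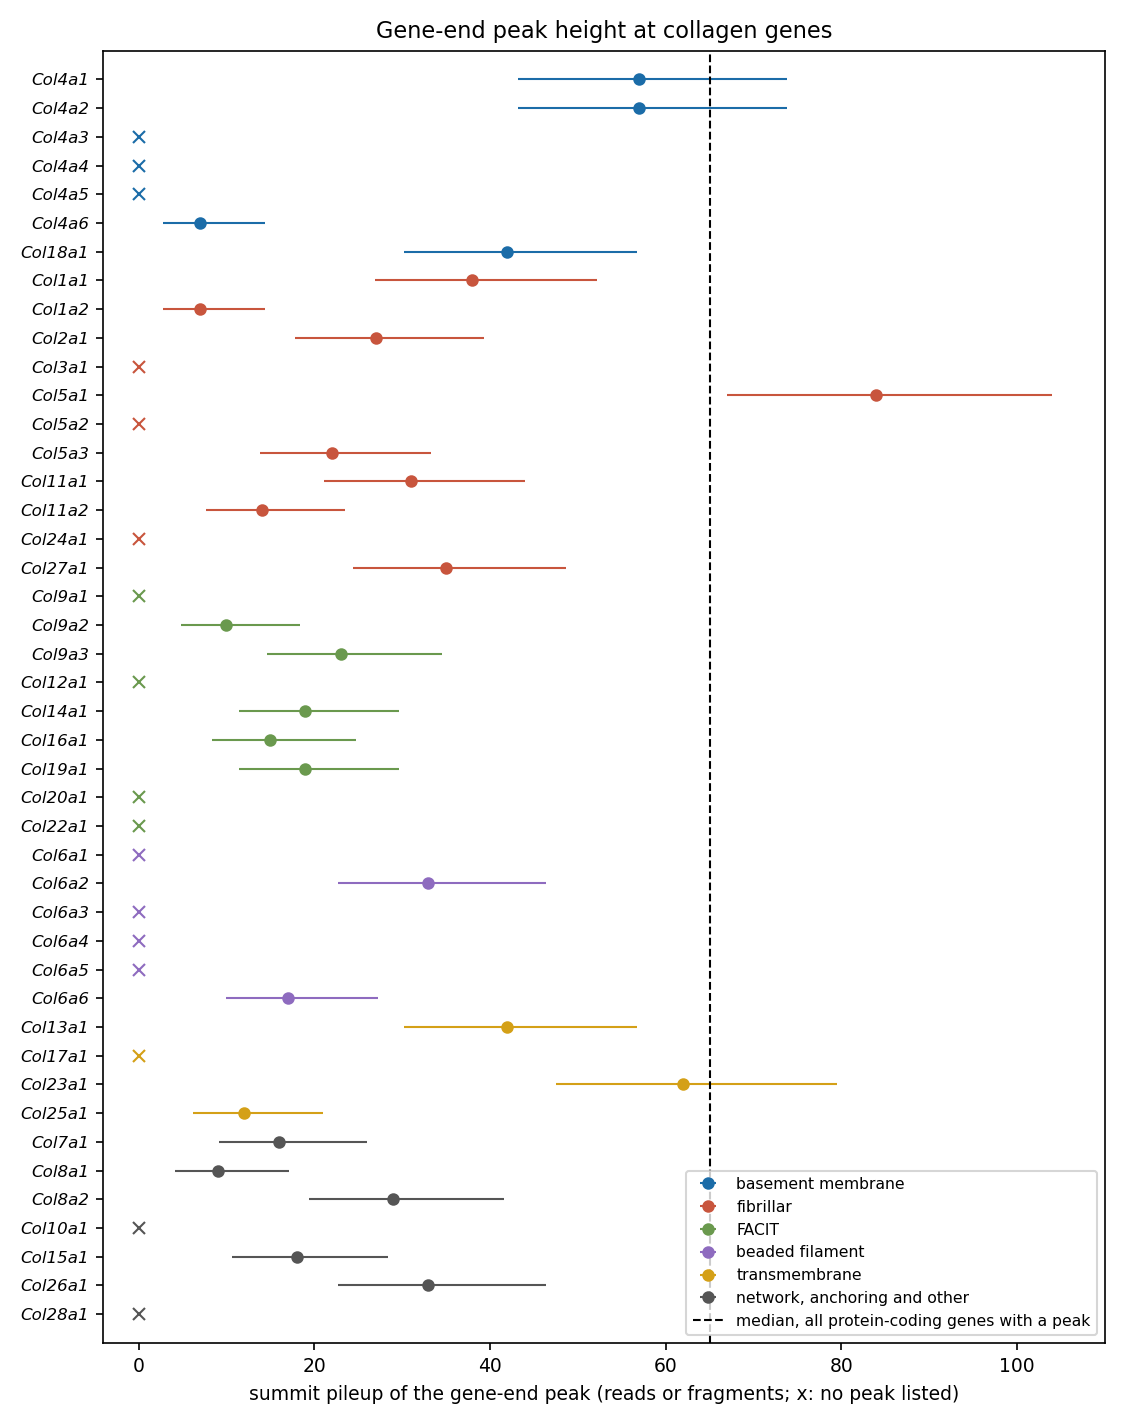
Summit pileup of the gene-end peak that stands for each of the 44 collagen genes (horizontal axis, reads or fragments), with exact Poisson 95% intervals, coloured by class; a cross marks a gene without a listed peak and the dashed line the median of 65 of all protein-coding genes with one. Col5a1 at 84 is the only point right of the line, and Col4a1 and Col4a2 show the same peak of 57.

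The remaining 4 classes held 15 of the 27 genes with a gene-end peak. In the FACIT class, collagens that sit on the surface of fibrils, 5 of 9 genes had one, with pileups of 10 to 23. Its highest fold was 8.69 at Col19a1 (pileup 19), at a peak with its summit 1.26 kb inside the gene. Col9a1, Col12a1, Col20a1 and Col22a1 had no gene-end peak. Col20a1 had a peak of 22 at a listed start 3.21 kb inside the annotated gene. In the class of beaded filaments, the type VI microfibrils found around most cells, 2 of 6 genes had a peak. Col6a2 had 33 (22.7 to 46.3) with a fold of 14.3, the highest fold of all collagen gene ends, and Col6a6 had 17, while Col6a1, Col6a3, Col6a4 and Col6a5 had none. Col6a1, Col6a2 and Col6a3 encode the 3 chains of the common type VI molecule, and 1 of these 3 genes had a peak.

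Of the 4 transmembrane collagens, 3 had a gene-end peak. Col23a1 had 62 (47.5 to 79.5) with a fold of 13.4 at its start, and Col13a1 had 42 and Col25a1, a collagen of neurons, 12. Col17a1, the hemidesmosome collagen of skin, had none. A second peak at the far end of Col23a1 had a pileup of 102 and lay also at an end of Phykpl, the only gene-end peak of the family shared with a gene that is no collagen. In the last class of network, anchoring and other collagens 5 of 7 genes had a peak. Col26a1 led with 33 (fold 11.6), followed by Col8a2 with 29, Col15a1 with 18, Col7a1 of the skin's anchoring fibrils with 16 and Col8a1 with 9. The Col26a1 peak only reached into the window, with its summit 1.78 kb inside the gene, and it was lost with windows of 500 bp. Col10a1, the collagen of hypertrophic cartilage, and Col28a1 had none. The faintest evidence at a gene end, by -log10 q, was 2.305 at Col4a6 and at Col1a2, followed by 3.25 at the second of the peaks of Col14a1 and 3.94 at Col8a1.

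Of the members with a listed strand, 21 had a gene-end peak at the start. RefSeq starts were listed for 35 members, and 22 of these had a peak within 1 kb of one (62.9%), against 66.5% of the 17492 protein-coding genes with a listed start. The count was 4 of 6 in the basement membrane class and 6 of 8 in the fibrillar class. Of 24 listed starts with a peak, 17 had the summit within 200 bp. The peak standing for Col9a2, a chain of the type IX of cartilage, was the only one at a far end, with a pileup of 10.

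Inside the genes, peaks were spread unevenly. Col26a1 and Col18a1 held the most, and the density pooled over the rest of the family was low. Single genes ranged from 0 per 100 kb, as in Col4a6, to 21.8 in Col9a2, a gene of 15.8 kb with 3 body peaks. These 3 peaks gave Col9a2 a higher density than Col26a1 and Col18a1, each at 10.7. A body peak, one inside the gene and beyond the end windows, was present in 31 of 44 collagen genes (70.5%), against 46.3% of all protein-coding genes and 79.2% of those within the collagen length quartiles. The 101 body peaks over 5.36 Mb gave 1.89 per 100 kb (exact Poisson 95% interval 1.54 to 2.29) in collagen genes, against 3.17 (3.14 to 3.21) in all protein-coding genes. Among genes within the length quartiles the densities were 3.17 per 100 kb in collagens (2.47 to 4.01) and 4.01 in all protein-coding genes (3.94 to 4.07), with intervals that overlapped. Col26a1 and Col18a1 are among these collagens and held 27 of their 70 body peaks. The density in this length range without the 2 genes was not computed. The median pileup was 18 for collagen body peaks (range 6 to 81) and 20 for those of all genes.

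Col26a1 had 15 body peaks, with pileups of 7 to 38, and Col18a1 had 12, of which 9 had a pileup of 20 or more and the tallest 64. Together these were 27 of the 101 peaks (26.7%), and without the 2 genes the density of the family was 1.45 per 100 kb (1.14 to 1.82). Col13a1 had 7 body peaks, the tallest of them at 81, Col4a1 had 6 with a highest pileup of 37, and Col4a2 had 5 with a highest of 26. Col2a1, whose gene-end peak was 27, had a body peak of 74 (58.1 to 92.9), 17.5 kb from its low-coordinate end. Col4a5, with no gene-end peak, had 1 of 67 (51.9 to 85.1) and fold 15.7, 92.5 kb inside. Col6a5, also without one, had 4, the tallest at 79. In all, 11 genes had a body peak without a gene-end peak, and 6 had neither: Col4a3, Col3a1, Col5a2, Col6a1, Col6a3 and Col10a1. A gene-end or body peak was thus present at 86.4% of collagen genes. The share was 75.9% over all protein-coding genes and 93.3% over those within the collagen length quartiles. Of all 21887 protein-coding genes, 7335 had no gene-end peak, and 5274 of those had no body peak either. For the 5067 within the length quartiles these counts were 1076 and 338, and for the 44 collagen genes 17 and 6.

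The basement membrane genes had 25 body peaks, 2.18 per 100 kb (1.41 to 3.22), and the fibrillar genes 11, 1.07 per 100 kb (0.536 to 1.92). The intervals overlapped, and Col18a1 held 12 of the 25 basement membrane peaks. The type IV genes alone had 13, 1.26 per 100 kb (0.669 to 2.15). Col4a1 and Col4a2 held 11 of those, Col4a4 had 1 of pileup 13, Col4a5 had 1, and Col4a3 had none. Col4a6 had none over 309 kb of gene. A listed start 52.8 kb inside Col18a1, for a shorter form, had a peak of 15 (8.40 to 24.7).

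**Figure D4:**
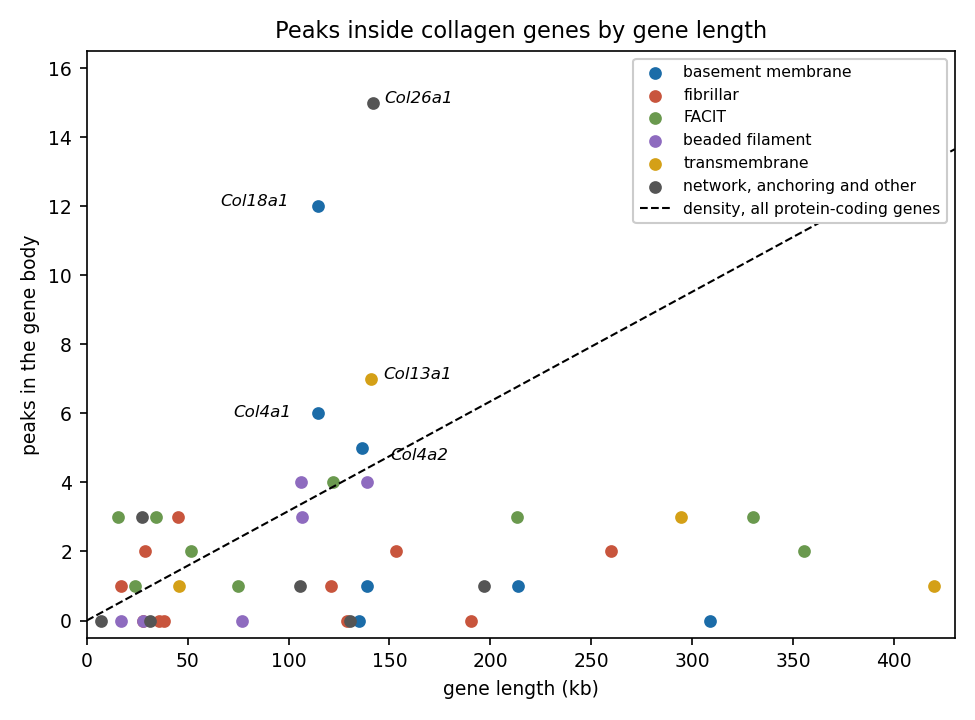
Number of peaks inside each of the 44 collagen genes (vertical axis) against gene length (horizontal axis, kb), coloured by class, with a dashed line at the density of all protein-coding genes, 3.17 per 100 kb. Col26a1 with 15 and Col18a1 with 12 stand far above the line, and Col25a1, the longest gene at 420 kb, has 1.

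The median number of peaks outside the gene and its end windows but within 50 kb of either end was 3 for collagen genes (range 0 to 16) and 5 for all protein-coding genes. At least 1 such peak was present at 39 of 44 collagen genes (88.6%), against 89.3% of all protein-coding genes. Of the 206 distinct peaks, 48 (23.3%) lay at an end of another protein-coding gene. This share was not computed for the surrounding peaks of all genes, so whether it is particular to collagens cannot be told. The median pileup of all the peaks around collagen genes was 26.5, against 26 for those around all genes. The median was 3 in both the basement membrane and the fibrillar class. Col11a2 had the most, 16 with pileups up to 100, of which 7 lay in or at the end of another protein-coding gene. Col18a1 had 14, and 9 of these lay upstream of its start in no other protein-coding gene, with pileups of 7 to 88. Col3a1 and Col5a2, neighbours without peaks of their own, had the same pair of peaks between them, of 47 and 24. Every one of the 6 genes without an end or body peak had at least 1 peak within 50 kb.

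The 5 tallest peaks in or near collagen genes were all outside them. The tallest, of pileup 2363, lay 25.2 kb from Col19a1 at chr1:24611658-24616113, was 4456 bp wide and had a fold of 2.59 over a local background of 910; only 3 peaks of the library exceed 2000. The others were 147 near Col15a1, at an end of Tgfbr1, 132 near Col17a1, at an end of Sfr1, 129 near Col14a1, and 120 near Col9a2, at an end of Smap2. The sources used here do not give filters on mitochondrial reads or duplicates. What part such reads or repeats have in the pileup of 2363 was not tested.

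**Figure D5:**
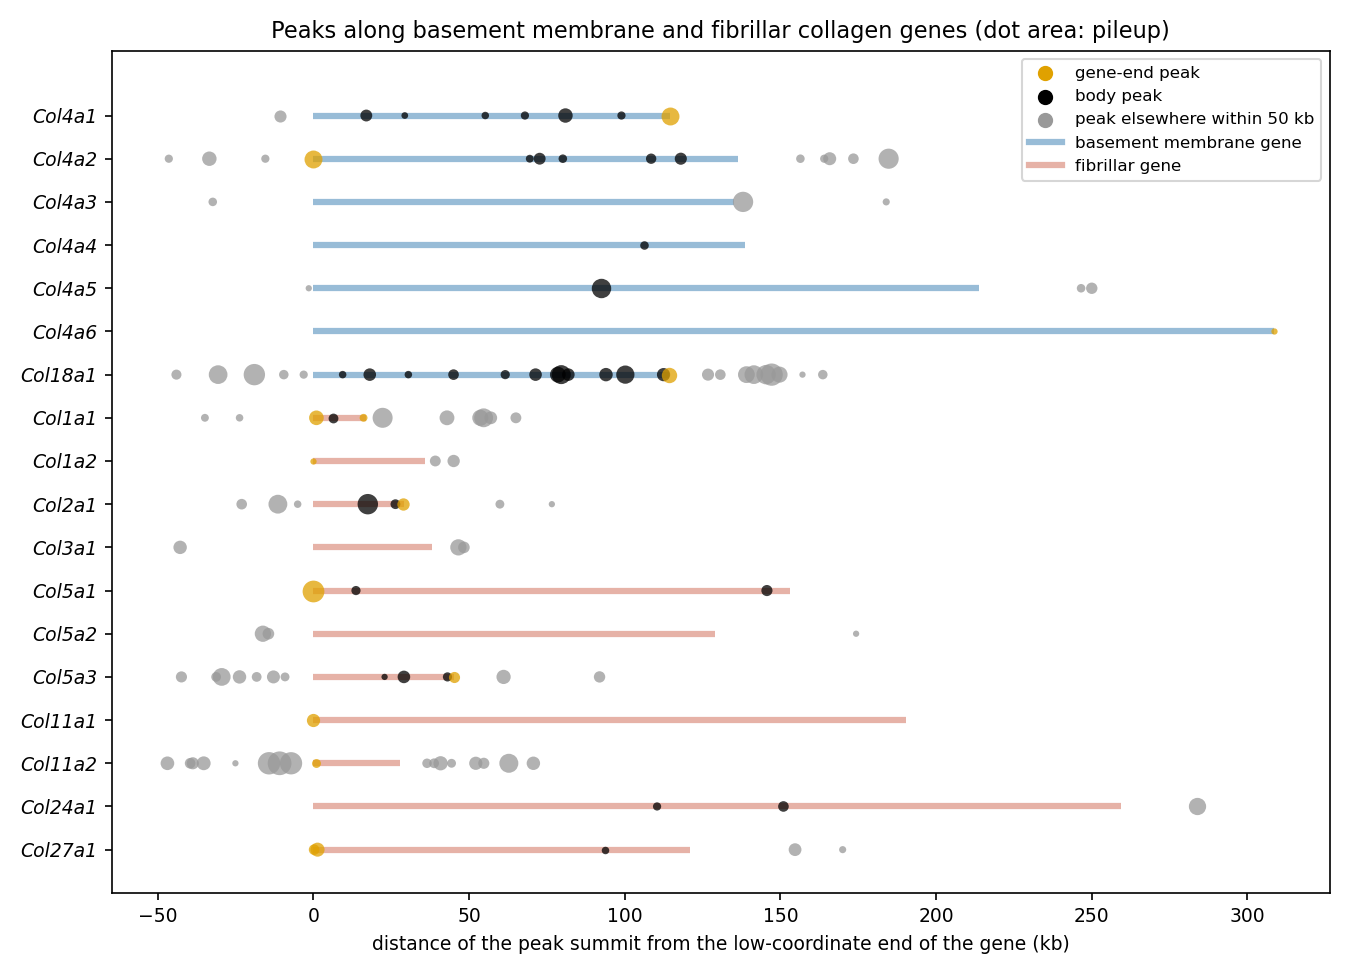
Peaks along the 7 basement membrane (blue bars) and 11 fibrillar (red bars) collagen genes, by distance of the summit from the low-coordinate gene end (horizontal axis, kb); dot area stands for summit pileup, and colour for gene-end (yellow), body (black) and surrounding (grey) peaks. Col18a1 is lined with 12 body peaks, whereas Col3a1 and Col5a2 have surrounding peaks alone.

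The genes that fold, process, bind or degrade collagen, or share its basement membranes, were taken as 5 lists. Across them 59 of 72 genes had a gene-end peak, against 66.5% of all protein-coding genes; the difference from the 27 of 44 collagen genes was not tested. Of 19 genes for folding and modifying the chains in the endoplasmic reticulum, 18 had one (94.7%), with a median pileup of 63. Ppib, a prolyl isomerase, had 136 (fold 18.0), and P3h3, a prolyl hydroxylase family member, had 125 (fold 16.9), while the lysyl hydroxylase Plod2 had none. Serpinh1, the collagen chaperone HSP47, had 25, which is near the collagen median. Of 13 genes for processing and cross-linking, 12 had one (92.3%, median 40.5), led by the procollagen proteinase enhancer Pcolce2 (77, fold 12.3) and the procollagen proteinase Adamts3 (60, fold 12.1); Tll2 had none.

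Of 22 genes for other basement membrane proteins, 19 had a gene-end peak (86.4%, median pileup 53), against 4 of 7 basement membrane collagens (57.1%, median 49.5, or 42 with the shared peak once). The share was 66.5% over all protein-coding genes (median 65) and 78.8% over those within the collagen length quartiles (median 66). Frem1 (30, fold 12.99) and Lamb2 (93, fold 12.7) had the highest fold of this list. Nid2, a nidogen, had 221, and the laminin chains Lama1 and Lamc1 had 130 and 114, which lie above every collagen gene end. Lama2, Lamb3 and Pxdn had none. Receptors had 8 of 11 (72.7%, median 27), led by the integrin chains Itga10 (79, fold 15.3) and Itga2 (44, fold 14.3), with none at Adgrg1, Gp6 and Lair1. The collagen-degrading proteases had the smallest share of the 5 lists, 2 of 7 (28.6%), with Mmp2 at 30 (fold 12.7) and Mmp14 at 9 (fold 4.34), and none at Ctsk, Mmp13, Mmp1a, Mmp8 and Mmp9.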

How the data were processed

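One ATAC-seq peak list was used, that of untreated E14 NSD1-dTAG cells; groups follow the titles, since the treatment label of both the 1 h and the 24 h sample reads 6 h. Per the labels' protocols, Tn5 was applied to isolated nuclei, with PCR amplification after it. The submitters' processing notes name the builds mm10 and GRCm38.p6 and the tools MACS2 2.2.6, Bowtie2 2.3.4.1 and SAMtools 1.9. The sources used here do not give filters on duplicates or mitochondrial reads, or a shift for the Tn5 cut; repeats or PCR copies, if kept, would raise pileups.

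The deposited list gives an integer score per peak, 10 times the -log10 q rounded down, which was not used for ranking. It gives the authors' fold enrichment, a ratio of pileup to local background, and the authors' -log10 p and -log10 q, with a threshold at q of 0.05. The total read count was not used here. Summit pileup was recovered from fold = (pileup + 1)/(background + 1) and the Poisson probability, and was whole within 0.01 for 77626 of 77629 peaks. The sources used here do not give whether the unit of pileup is reads or fragments.

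Genes, without strand, came from RefSeq of GRCm38.p6, and starts, strands and sequences from its promoter table. A gene-end peak overlapped a window of 1000 bp either side of an annotated end by 1 bp or more; the one of highest fold stood for its gene. Shares carry Wilson and Newcombe 95% intervals, and pileups and densities exact Poisson intervals. The members, classes and lists were chosen with earlier results of these data known. Named were all basement membrane and fibrillar genes, in each other class the highest fold and every gene without a gene-end peak, the 5 genes with most body peaks, the 5 tallest body or surrounding peaks, the weakest 3 by q (with ties), and in each pathway list the 2 highest folds and up to 5 genes without a peak. Other genes were named after their values were seen. Alternatives varied the q and pileup thresholds, windows, overlap rule, radius and class membership. Functions were tested on simulated data. The software was scipy 1.17.1, pandas 2.3.3 and numpy 2.4.6 under Python 3.11.15, with matplotlib 3.10.9 for plots.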

Additional observations from a re-analysis of the deposited data

How the results depend on the processing

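The comparison of the classes depends on small choices. The basement membrane minus fibrillar difference of median fold was 0.37, and it was 1.24 at -log10 q of at least 5, 0.83 both for 500 bp windows and when a summit had to lie inside the window, and 1.66 without X chromosome genes. It turned to -0.56 at a pileup of at least 20, and to -0.91 with windows of 2500 bp or with the shared type IV peak taken once. The difference of median pileup was 20.5, and 13 with windows of 2500 bp or the shared peak once. The difference in shares was -15.6 percentage points and turned to 2.60 with windows of 500 bp, which lose Col1a1 and Col11a2. The body density difference of 1.10 per 100 kb was 0.716 with windows of 500 bp and 0.181 without Col18a1. The difference of median surrounding peaks was 0, and became -1 at -log10 q of at least 5, a pileup of at least 20, a radius of 20 kb, or peaks outside other genes, and -4 at 100 kb. The collagen median of 3 surrounding peaks was 1 at 20 kb, 7 at 100 kb and 1.5 outside other genes. The count of 27 collagen genes with a gene-end peak was 15 at a pileup of at least 20, and 21 to 32 under the other 5 alternatives, of which the one on starts alone covers 35 genes. The settings without X chromosome genes, without Col18a1 in the body density, and with the shared peak once for pileup and fold were chosen after seeing the data. No paired analysis was possible because each group has 1 sample, and no sample could be left out. A pileup of 7, as at Col1a2 and Col4a6, has an interval of 2.81 to 14.4, so depth limits the faintest peaks most.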

Other observations

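Single collagen genes differed in where their peaks lay. Col5a1 and Col11a1, with gene-end pileups of 84 and 31, had 2 and 0 body peaks over 153 and 190 kb. Col6a5 and Col12a1, with no gene-end peak, had 4 body peaks each. Col6a4, Col6a5 and Col6a6, related type VI chains that follow each other on chromosome 9, had 3, 4 and 4 body peaks, with highest pileups of 55, 79 and 42, while Col6a6 alone of them had a gene-end peak. Col12a1, a fibril-associated collagen, had 2 of its 4 body peaks 1.42 and 2.47 kb from its high-coordinate end, with pileups of 10 and 19, just beyond the window; with windows of 2500 bp it counts as having a gene-end peak, as do Col6a1, Col20a1, Col6a5 and Col4a5.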
